A study of Bos taurus with 15 samples.

Results

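The autosomes of bull calf liver were divided into windows of 100 kb, referred to here as bins, and the methylation level of each bin was compared between calves gestated by heat stressed dams and calves gestated by cooled dams. Every listed cytosine position on chromosomes 1 to 29 was assigned to a bin, the level of a bin in a calf was the plain mean of the methylation percentages of its positions, and a bin was kept when each of the 9 calves had at least 10 positions in it. Of 25129 bins holding any position, 8298 bins (33.0%) were kept. A change from 0 to 100% methylated is called here a change of 100 points.

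The series comprised 15 libraries of reduced representation bisulfite sequencing from Holstein cattle, of which 9 were from liver of newborn bulls and 6 from mammary gland of heifers on day 21 of the first lactation. The heifers came from dams heat stressed (IUHT-H, n = 3) or cooled (IUCL-H, n = 3) in late gestation. These groups are called here heat stressed and cooled heifers. By the study's methods all heifers were kept under the same conditions after birth. In utero heat stressed bulls (IUHT-B, calves 2 to 5, n = 4) came from dams that had only shade during the last 6 to 7 weeks of gestation. In utero cooled bulls (IUCL-B, calves 1 to 5, n = 5) came from dams given fans and soakers besides shade over the same weeks. Liver was taken soon after birth from both groups, each calf was a separate animal, and no other treatment is given in the labels. By the study's methods the bulls were born in different trial years, which the labels do not tie to calves, so birth year and treatment cannot be told apart here. Each library was made from whole liver, so a change of level within a cell type and a change in the mixture of cell types cannot be told apart. The tissue label was not checked against marker genes, because no gene annotation was used here.

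DNA methylation in mammals is carried mainly by cytosines followed by guanine, and most of the genome outside active promoters and enhancers is highly methylated. Long stretches of chromosome can share a level, because replication timing, chromatin state and CpG density vary over large distances. In liver, methylation accompanies the maturation of hepatocytes around birth, and its level over a bin of this size averages many regulatory elements, genes and intergenic sequences.

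Liver libraries held between 307023 and 5958861 positions and between 10484911 and 38221835 cytosine calls. Positions read once made up 18.8 to 58.8% of a library, positions with at least 5 reads made up 25.04 to 65.7%, and 95.6 to 97.5% of positions were listed at exactly 0 or 100%. The median bin held 68, 59, 56, 208 and 380 positions in IUCL-B 1 to 5, and 68, 27, 34 and 20 in IUHT-B 2 to 5. IUCL-B 4 and 5 were therefore much wider libraries than the other 7, and results are given with and without them.

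Calves of a group listed many of the same positions. Within the kept bins, any pair among IUCL-B 1 to 3 shared 42.6 to 59.7% of the positions of the smaller library, and any pair among the IUHT-B shared 40.8 to 66.1%. Pairs of 1 calf of IUCL-B 1 to 3 with 1 IUHT-B shared 14.2 to 20.2%. Pairs of IUCL-B 4 or 5 with IUCL-B 1 to 3 shared 18.6 to 35.0%, and pairs of these with an IUHT-B calf shared 17.7 to 36.7%. Positions listed in no other calf were 18.6, 15.2, 23.0, 61.2 and 72.7% of the positions in IUCL-B 1 to 5, and 29.1, 11.4, 20.1 and 7.09% in IUHT-B 2 to 5. At most 2.55% of the positions of a calf in these bins were listed in all 9 calves. The group of a calf and the set of positions sampled in it therefore differed together, and their parts in a bin difference cannot be told apart from the full position lists alone. Every p given here takes the calves of a group as independent of each other, and whether the shared positions came from reads common to their libraries was not tested.

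Averaged over all 8298 bins, the liver of IUHT-B was slightly more methylated than that of IUCL-B, by an amount within the spread of the calves. The mean bin level was 76.97, 77.56, 78.06, 76.52 and 74.37% in IUCL-B 1 to 5, and 77.92, 77.83, 78.50 and 78.17% in IUHT-B 2 to 5. The lowest calves were the wide libraries IUCL-B 4 and 5, and IUCL-B 3 lay inside the range of IUHT-B. Mean and SD were 78.1% ± 0.303 over the 4 IUHT-B calves and 76.7% ± 1.43 over the 5 IUCL-B calves, a difference of 1.41 points (two-sided exact permutation test over all assignments of the calves, p = 0.0635, smallest possible p = 0.00794). Without IUCL-B 4 and 5 the IUCL-B mean was 77.5% ± 0.548 (SD, n = 3) and the difference 0.577 points (exact permutation test, p = 0.143, smallest possible p = 0.0286).

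The groups differed more in the number of highly methylated bins. Bins at 90% or more were 5.16, 6.53, 8.29, 4.04 and 2.98% of all bins in IUCL-B 1 to 5, and 7.17, 15.0, 14.7 and 21.9% in IUHT-B 2 to 5. The difference was 9.26 percentage points (exact permutation test, p = 0.0159), and without IUCL-B 4 and 5 it was 8.003 (exact permutation test, p = 0.0857). This count followed the number of positions per bin across the calves: IUHT-B 5, with the fewest positions, had the most such bins, IUCL-B 5, with the most positions, had the fewest, and IUHT-B 2, with as many positions as IUCL-B 1, overlapped with IUCL-B. The part of library width in this difference was not tested. Bins under 50% methylated made up 1.65, 1.48, 1.64, 2.11 and 3.76% in IUCL-B 1 to 5 and 1.70, 3.35, 2.70 and 4.16% in IUHT-B 2 to 5 (difference 0.848 percentage points, exact permutation test, p = 0.222). Left with IUCL-B 1 to 3, the difference was 1.39 and every IUHT-B calf lay above every IUCL-B calf (exact permutation test, p = 0.0571).

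**Figure D1:**
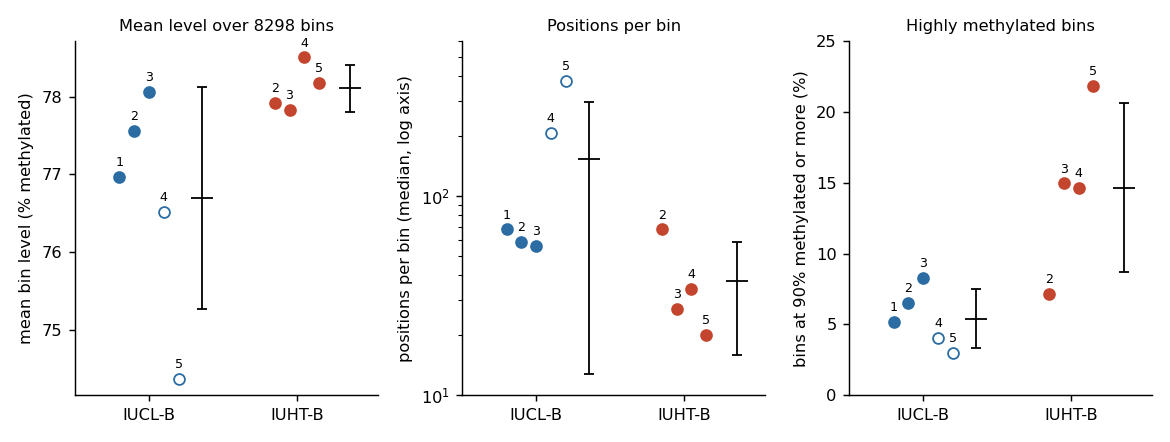
Mean level over the 8298 bins (left, % methylated), median number of positions per bin (middle, log axis) and share of bins at 90% methylated or more (right, %), with 1 numbered point per calf, open points for the wide libraries IUCL-B 4 and 5, and a bar at the group mean ± SD. Mean levels of the 4 IUHT-B calves sit between 77.83 and 78.50%, around the highest IUCL-B calf at 78.06%, while the share of highly methylated bins reaches 21.9% in the calf with 20 positions per bin.

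For single bins, a linear model was fitted to all 8298 bins with limma. A bin was called at a Benjamini-Hochberg adjusted p of 0.2 or less, the level the study used for its q-values. The study tested single cytosines by logistic regression and also required a difference of at least 15%, which was not required here. The rule used here called 1417 bins, 17.1% of those tested, against 1736 (20.9%) at an unadjusted p under 0.05. Hypermethylated bins outnumbered hypomethylated bins in IUHT-B: 1004 (12.1%) were higher and 413 (4.98%) were lower. In called bins that were higher, the median level rose from 75.04% in IUCL-B to 87.6% in IUHT-B, with a median difference of 11.9 points. In called bins that were lower, the median level fell from 81.8 to 68.4%, and the median difference was -13.1 points. These sizes come from the same calf values that selected the bins, so they are biased towards large differences. Over all bins 59.4% were higher in IUHT-B, the 5th and 95th percentiles of the difference were -10.6 and 13.1 points, and the median standard error (SE) of a difference was 4.05 points.

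At a stricter adjusted p of 0.05, limma called 236 of the 8298 bins. Among all bins 441 differed by at least 15 points, and 420 of these were among the 1417 called bins, so size and call largely coincided there. Levels of the groups did not overlap in 710 bins (8.56% of all), 518 higher and 192 lower in IUHT-B, and 615 of these were among the called bins. When IUCL-B 4 and 5 were left out, limma called 949 bins (11.4%), 615 higher and 334 lower. The levels of the remaining 7 calves did not overlap between the groups in 1448 bins (17.4%). With fewer calves, groups fail to overlap by chance more often, so this share cannot be set against the 8.56% of 9 calves. Called bins with and without the wide libraries shared 752 members, which were 53.1% of the first set and 79.2% of the second. All 1417 called bins kept their direction without the wide libraries, as did 87.7% of all bins, but these fits share 7 calves.

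Of the called bins, 8 are described in full, the 4 with the smallest limma p in each direction. Their differences are biased towards large values by this choice. They are given by the coordinates of the deposited tables, whose bovine assembly is UMD3.1.1 in the study's methods and UMD3.1 in the submitters' processing notes. No gene is named, because no annotation of either was used here.

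The bin chr26:15600000-15699999 was near complete methylation in every IUHT-B calf. Its level was 82.6, 80.0, 87.5, 86.0 and 85.1% in IUCL-B 1 to 5, and 97.2, 99.99, 100 and 100% in IUHT-B 2 to 5. Every IUHT-B calf was above every IUCL-B calf, and the difference was 15.1 ± 2.12 points (SE, limma, adjusted p = 0.0117). IUHT-B 5 had 10 positions in this bin, all 10 of them also listed by another IUHT-B calf, and IUCL-B 5 had 157.

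In chr18:36700000-36799999 the level was 80.6, 72.5, 79.7, 71.4 and 65.7% in IUCL-B 1 to 5, and 94.1, 99.96, 94.1 and 99.95% in IUHT-B 2 to 5. The groups were separated by more than 13 points at their closest, and the difference was 23.1 ± 3.36 points (SE, limma, adjusted p = 0.0117). The bin chr17:14700000-14799999 had the largest difference of the 4 higher bins. It stood at 61.7, 56.6, 61.1, 47.7 and 53.9% in IUCL-B 1 to 5 and at 81.4, 90.9, 83.3 and 100% in IUHT-B 2 to 5, a difference of 32.7 ± 4.85 points (SE, limma, adjusted p = 0.0117). IUCL-B calves were thus intermediate in this bin and IUHT-B calves high. In chr3:27200000-27299999 the level was 61.1, 55.6, 60.6, 71.1 and 62.2% in IUCL-B 1 to 5 and 91.9, 86.7, 95.2 and 84.6% in IUHT-B 2 to 5, a difference of 27.5 ± 4.12 points (SE, limma, adjusted p = 0.0117). Here the highest IUCL-B calf was the wide library IUCL-B 4.

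The bin with the smallest p of all was lower in IUHT-B. In chr8:28400000-28499999 the level was 92.3, 95.5, 96.3, 85.5 and 87.6% in IUCL-B 1 to 5, against 65.5, 61.5, 60 and 59.96% in IUHT-B 2 to 5. IUHT-B calves lay within 6 points of each other and about 20 points or more under the lowest IUCL-B calf, and the difference was -29.7 ± 3.47 points (SE, limma, adjusted p = 0.00296). IUHT-B 5 had 10 positions there, of which 8 were listed by another IUHT-B calf.

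The largest drop among the named bins was in chr6:88000000-88099999, with 81.8, 81.8, 75, 76.4 and 67.6% in IUCL-B 1 to 5 and 52.1, 25, 41.7 and 41.7% in IUHT-B 2 to 5. IUHT-B calves differed by up to 27 points among themselves in it, more than IUCL-B calves, and the difference was -36.4 ± 5.85 points (SE, limma, adjusted p = 0.0129). It was also the named bin with the fewest positions in each IUCL-B calf, 11, 11, 12, 40 and 82 in IUCL-B 1 to 5, beside 20, 12, 12 and 12 in IUHT-B 2 to 5, and 8 of its 26 distinct IUHT-B positions were listed by all 4 IUHT-B calves. In chr11:44100000-44199999 the level was 77.3, 72.2, 80.2, 70.2 and 66.5% in IUCL-B 1 to 5 and 47.5, 36.8, 40.7 and 46.1% in IUHT-B 2 to 5 (difference -30.5 ± 4.99 points, SE, limma, adjusted p = 0.0129). In chr9:75900000-75999999 it was 59.2, 83.3, 84.0, 72.1 and 74.2% in IUCL-B 1 to 5 and 48.6, 35.8, 31.3 and 41.7% in IUHT-B 2 to 5 (difference -35.2 ± 6.06 points, SE, limma, adjusted p = 0.0162). IUCL-B 1 stood apart from its group in this last bin, yet still lay above every IUHT-B calf.

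**Figure D2:**
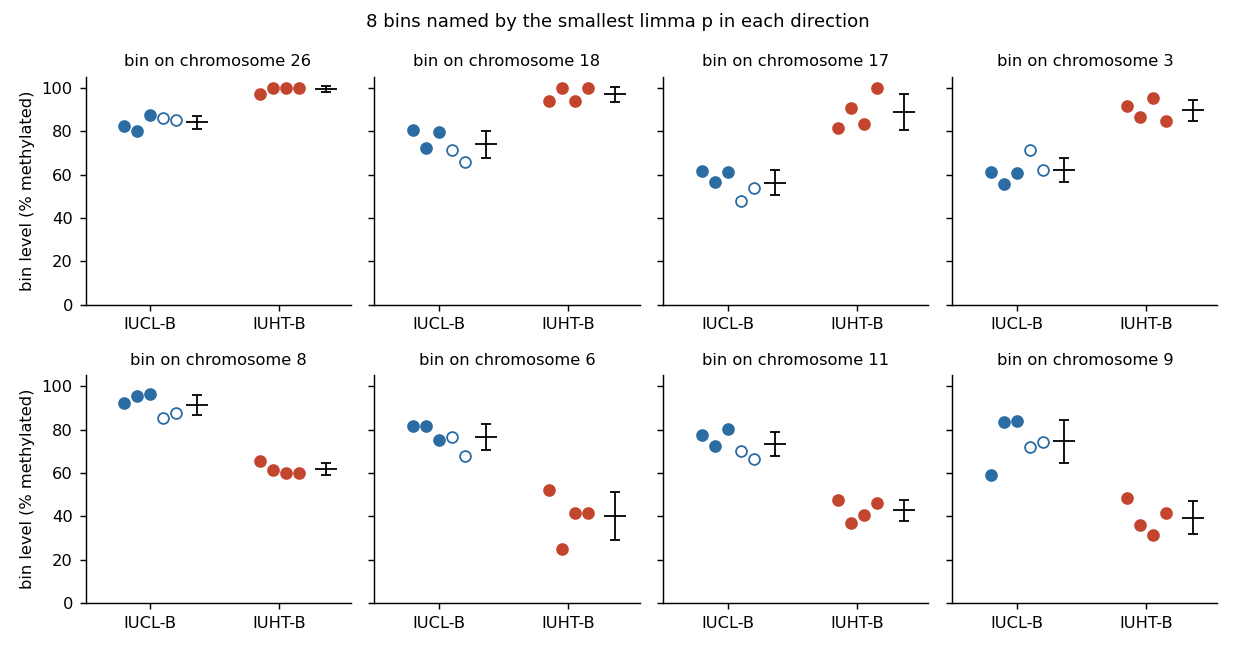
Level (% methylated) of the 8 named bins, with 1 point per calf, open points for IUCL-B 4 and 5, and a bar at the group mean ± SD. In each panel no IUHT-B point overlaps with an IUCL-B point, and the bins of the upper row are higher in IUHT-B while those of the lower row are lower.

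The 8 named bins stayed called without the wide libraries (limma, adjusted p from 0.0204 to 0.0462) and when any single calf was left out. They had been chosen for the smallest p over the same 9 calves, so this was largely fixed by the choice and is no test of their stability. The bins rested on few positions and on positions that calves of a group had in common. IUHT-B 5 had 10 to 13 positions in them, and 56.3 to 78.6% of the IUHT-B listings were positions listed by another IUHT-B calf as well. The like share among IUCL-B 1 to 3 was 61.8 to 83.5%. In all called bins the median share of IUHT-B listings found in another IUHT-B calf was 59.3% and in bins not called it was 59.1%. In the named bins the share of IUHT-B listings found in an IUCL-B calf ran from 31.4% on chromosome 3 to 59.5% on chromosome 9. It was 45.6% on chromosome 17 and 49.4% on chromosome 18. The groups were thus compared largely on different positions in these bins. The median of this share was 51.9% in bins called higher, 49.3% in bins called lower and 51.9% in bins not called. In mammary gland of heifers the 8 named bins had group means at most 5.01 points apart. Heat stressed minus cooled heifers gave -5.01 points on chromosome 17 and -3.87 on chromosome 18, against the direction in liver. The other named bins lay between -1.46 and 0.641 points. Over all bins the 5th and 95th percentiles of this mammary difference were -3.81 and 3.08 points.

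When each position was weighted by its reads instead of counting once, the 8 bins kept their direction and none stayed called. In 5 of them the calves gave differences close to or above those without weights, and the groups did not overlap. The differences were 30.5 points on chromosome 18, 39.5 on chromosome 17, 32.0 on chromosome 3 and -28.3 on chromosome 8 (limma, adjusted p = 0.416 for each). The bin on chromosome 26 then differed by 16.4 points, with 83.7, 67.2, 92.6, 87.9 and 85.5% in IUCL-B 1 to 5 and 99.1, 99.9, 100 and 100% in IUHT-B 2 to 5 (limma, adjusted p = 0.416). The bin on chromosome 9 then ranged from 6.91 to 92.3% among IUHT-B calves, and its groups overlapped (limma, adjusted p = 0.814). Its difference shrank from -35.2 to -11.7 points. Groups also overlapped in the bin on chromosome 6, whose difference went from -36.4 to -20.6 points (limma, adjusted p = 0.530), and in the bin on chromosome 11, at -31.6 points (limma, adjusted p = 0.504).

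Each kept bin was next divided into alternate windows of 10 kb, so that even and odd windows of a bin hold different positions of the same calves. In 2563 bins each of the sets by itself held at least 10 positions in every calf. The named bins could not be among them, because IUHT-B 5 had only 10 to 13 positions in each. Other bins with as few positions in a calf were left out as well. The split therefore does not test the named bins or all called bins. Across the 2563 bins the group difference in even windows had almost no linear relation to that in odd windows. The r across bins was 0.0026, and -0.011 without IUCL-B 4 and 5. By contrast, the mean level over the 9 calves had r = 0.556 between even and odd windows, and levels within a single calf had r from 0.198 to 0.527. The same split in mammary gland gave r = 0.167 for the difference between heifer groups and r = 0.620 for the mean level. These are descriptions across bins that share libraries, and bins are not independent replicates.

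Of these 2563 bins, limma called 461 in even windows (18.0%) and 476 in odd windows (18.6%), and 90 were called in both. The 90 were 19.5% of the bins called in even windows and 18.9% of those called in odd windows, both close to the share of all bins called in the other set. Of the 90 bins, 55 had the same direction in both. Over the 3838 and 3813 bins of the even and odd sets, 488 of 727 and 527 of 774 called bins were higher. Unrelated called bins would thus often share a direction as well. Among bins called in even windows 53.4% had the same direction in odd windows, and among all bins 52.1% did.

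**Figure D3:**
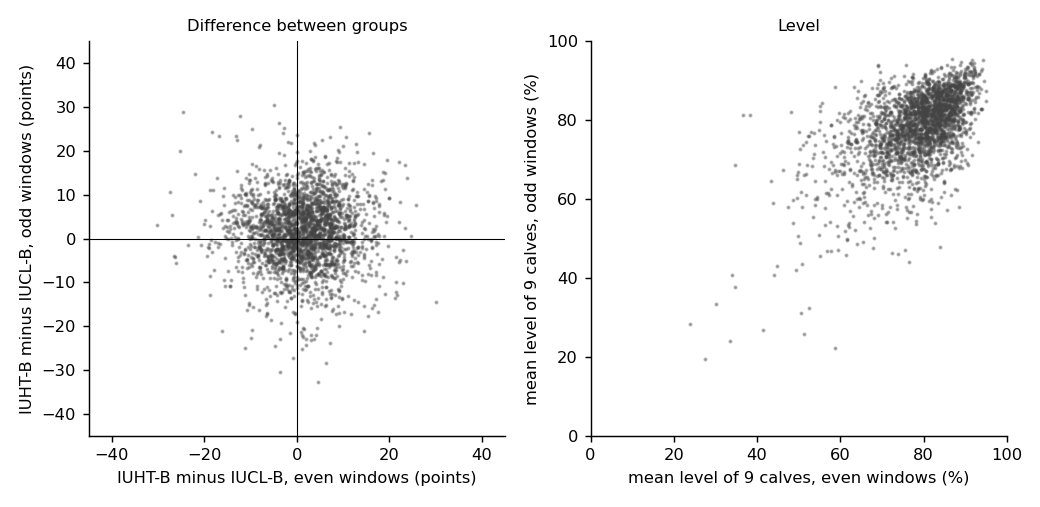
Left, difference IUHT-B minus IUCL-B (points) in even 10 kb windows (horizontal axis) against odd 10 kb windows (vertical axis), with 1 point for each of 2563 bins. Right, the same bins by the mean level of the 9 calves (%), where the points follow the diagonal (r = 0.556), whereas the differences on the left form a round cloud (r = 0.0026).

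Neighbouring bins gave a like result. Over 5909 pairs of adjacent kept bins the differences had r = 0.012, both bins were called in 162 pairs, and 106 of those had the same direction. Since 70.9% of the called bins were higher, unrelated called bins would often share a direction as well. Of the 1417 called bins, 202 had a called neighbour of the same direction, and 9 runs of 3 or more such bins occurred. Of all bins 17.1% were called, and a bin whose neighbours were not kept could not count here. The number expected of unrelated bins was not worked out, so these counts are a description. The longest, chosen after its values were seen, was 4 bins at chr21:14300000-14699999, with 73.3, 74.4, 75.8, 77.4 and 72.7% in IUCL-B 1 to 5 and 78.0, 87.8, 89.1 and 93.8% in IUHT-B 2 to 5. IUHT-B 2 lay close to IUCL-B 4 in this run and the other IUHT-B calves well above. Over 1281 megabases, the differences of even and odd bins of a megabase had r = -0.020.

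The calls also changed with the positions taken into a bin. Each restricted set is given beside all positions in the same bins, with limma fitted again to those bins alone. With positions of at least 5 reads, 1624 bins could be compared, and limma called 2 of them (7.76% of bins at an unadjusted p under 0.05), where all positions gave 295 (21.9% unadjusted). The differences had r = 0.778 with those of all positions across these bins. Part of this relation is built in, because the selected positions are among all positions of the same calves. The median SE was 4.66 points against 3.03 with all positions. With positions of more than 10 reads, which is the coverage the study required of a cytosine, limma called 0 of 1289 bins (87 bins at an unadjusted p under 0.05), where all positions gave 246 (282 unadjusted). Positions with under 5 reads gave 141 called of 4826 bins (660 unadjusted), where all positions gave 895 (1049 unadjusted). Adjusted over the same bins without the new fit, all positions gave smaller counts. These were 80 in the bins of at least 5 reads, 29 in those of more than 10 and 594 in those of under 5.

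Positions listed by several calves were then handled in several ways. Each position was first kept only in the calf that had read it most. Limma then called 0 of 1449 bins (115 unadjusted), where all positions gave 275 (319 unadjusted), and the median SE rose from 3.02 to 5.04 points. The mean difference was 1.21 points, beside 1.22 on all positions in these bins. The bin differences of both had r = 0.794, which is again partly built in. Without IUCL-B 4 and 5 the mean differences were 0.160 and 0.121 points. Adjusted over the same bins without the new fit, all positions gave 66 called bins. With positions that no other calf of the same group listed, limma called 0 of 317 bins (20 unadjusted), where all positions gave 49 (64 unadjusted). Adjusted over these bins without the new fit, all positions gave 2. The mean difference was 1.19 points, beside 0.729 on all positions, and 1.03 beside -0.229 points without IUCL-B 4 and 5. Positions listed in a single calf of the 9, with at least 3 of them per bin, gave 0 called of 1485 bins (117 unadjusted), where all positions gave 243 of the 1449 bins they shared (299 unadjusted), and the median SE was 9.06 points against 3.22. Such positions were also pooled into bins of 1 Mb, where the median SE was 4.34 points. In these limma called 0 of 827 (43 unadjusted, 5.20%), and the mean level differed by -0.501 points (IUHT-B minus IUCL-B, exact permutation test, p = 0.738). All positions in the same 827 bins gave 138 called (21.8% unadjusted), with a median SE of 1.78 points and a mean difference of 1.52 points. Positions listed in both groups gave 12 called of 3092 bins (354 unadjusted), 5 higher and 7 lower, where all positions gave 550 (668 unadjusted). The mean difference on them was 0.239 points (exact permutation test, p = 0.587), beside 1.40 on all positions in these bins. When IUCL-B 4 and 5 were left out they gave 440 called bins (14.2%), close to the 449 of all positions, and the mean difference was 0.683 points (exact permutation test, p = 0.114), beside 0.387 on all positions. The set was not rebuilt for the remaining 7 calves, so positions that IUHT-B shared only with IUCL-B 4 or 5 stayed in it. Positions listed in both groups of the 7 calves were not tested by themselves. In the other sets named here, leaving out IUCL-B 4 and 5 gave at most 5 called bins, where all positions gave 33 to 613. Without the new fit, all positions of the 9 calves gave 112 called bins for at least 3 single-calf positions. They gave 31 for such positions in bins of 1 Mb and 277 for positions listed in both groups.

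**Figure D4:**
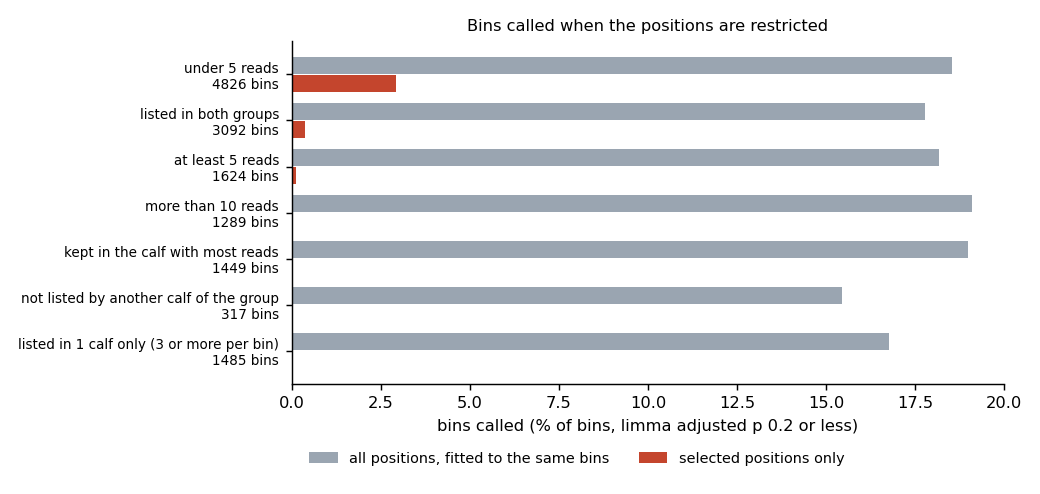
Bins called by limma at an adjusted p of 0.2 or less (horizontal axis, % of bins) when only selected positions were taken (red) and when all positions were taken with limma fitted to the same bins (grey), with the number of bins under each label. Grey bars run from 15.5 to 19.1% and red bars from 0 to 2.92%.

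Weighting by reads, with all 8298 bins, limma called 0 (819 unadjusted), with a median SE of 8.03 points against 4.05 without weights. The mean difference was 1.41 points with and without weights. Bin differences had r = 0.727 with those without weights, and 95.7% of the 1417 called bins kept their direction. With 10 positions drawn at random from each calf in each bin, which gave all calves the same depth of positions, limma called 2 bins (731 unadjusted) with a median SE of 8.92 points. The mean difference was then 1.40 points, r with the main bin differences was 0.709, and 95.4% of the 1417 called bins kept their direction. These settings use the same calves as the main fit and all or part of the same positions, and the 1417 bins were chosen by that fit. Much of the agreement in r and direction is therefore built in and is no test of the differences. A logistic regression on the summed methylated and unmethylated reads called 7658 bins when reads were taken as independent and 0 when overdispersion between calves was estimated (899 at an unadjusted p under 0.05).

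Calves were also compared by their levels over all bins. Levels of IUCL-B 1 to 3 had r = 0.668 to 0.737 between pairs, those of IUHT-B 0.560 to 0.628, and pairs of IUCL-B 1 to 3 with IUHT-B 0.418 to 0.593. IUCL-B 4 and 5 were the most alike, with r = 0.892. They had r = 0.592 to 0.629 with IUCL-B 1 to 3 and 0.494 to 0.675 with IUHT-B, the highest of these with IUHT-B 2. In bins of 1 Mb made of positions listed in a single calf, the ranges were 0.330 to 0.451 within IUCL-B 1 to 3, 0.147 to 0.449 within IUHT-B and 0.168 to 0.427 between them. With all positions in bins of 1 Mb they were 0.719 to 0.778, 0.509 to 0.636 and 0.438 to 0.630. On the single-calf positions IUCL-B 4 and 5 had r = 0.920 with each other. They had r = 0.429 to 0.532 with IUCL-B 1 to 3 and 0.199 to 0.638 with IUHT-B. The ranges of IUHT-B pairs and of pairs between groups overlapped with either set of positions, while IUCL-B 1 to 3 lay above the pairs between groups with all positions and overlapped with them with single-calf positions. The mean within-group SD of a bin was 7.05 points in IUHT-B, 5.49 in IUCL-B and 4.66 in IUCL-B 1 to 3, and in the same bins 2.70 and 3.12 in heat stressed and cooled heifers, whose libraries held more positions.

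By chromosome, the mean bin level was higher in IUHT-B on 28 of 29 chromosomes. Differences ranged from -0.0396 points on chromosome 4 to 2.57 on chromosome 26, and 15 chromosomes (51.7%) passed an adjusted p of 0.2 (exact permutation tests adjusted over 29, lowest adjusted p = 0.115, 10 chromosomes at an unadjusted p under 0.05). Chromosomes share the same calves and libraries, so their agreement in direction is not independent evidence. No chromosome passed with read weighting, with at least 5 reads, with more than 10 reads or with positions listed in both groups (4, 4, 1 and 2 at an unadjusted p under 0.05, exact permutation tests).

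Calves did not overlap between groups on 6 chromosomes. Chromosome 26 was between 74.7 and 78.3% in IUCL-B and between 79.1 and 79.6% in IUHT-B, a difference of 2.57 points. On chromosome 21 the ranges were 74.5 to 77.4% and 78.2 to 79.5% (difference 2.36), and on chromosome 2 they were 72.0 to 76.4% and 76.6 to 77.7% (difference 2.17). On chromosome 17 IUCL-B ran from 74.3 to 77.3% while the IUHT-B calves lay between 78.07 and 78.22% (difference 2.00). Chromosome 24, from 78.0 to 80.1% in IUCL-B and 80.5 to 81.9% in IUHT-B, differed by 1.85 points, and chromosome 14, from 75.2 to 78.6% and 78.6 to 79.1%, by 1.49. On each of these chromosomes the highest IUCL-B calf came within 1 point of the lowest IUHT-B calf, and IUCL-B 5 was the lowest calf. With IUCL-B 4 and 5 left out the differences were 1.76, 1.80 and 1.13 points on chromosomes 26, 21 and 2. On chromosomes 17, 24 and 14 they were 1.47, 1.47 and 0.782 points.

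On the other 9 chromosomes that passed, the groups overlapped. The differences were 2.17 points on chromosome 19 (IUCL-B 71.3 to 77.3%, IUHT-B 76.7 to 77.6%), 1.82 on chromosome 18 (71.5 to 75.6%, 75.1 to 76.0%) and 1.78 on chromosome 5 (73.0 to 77.4%, 77.0 to 78.0%). They were 1.78 on chromosome 22 (76.7 to 79.8%, 78.9 to 81.7%), 1.60 on chromosome 12 (76.7 to 81.1%, 80.8 to 81.8%) and 1.54 on chromosome 15 (74.7 to 77.8%, 77.5 to 79.4%). They were 1.19 on chromosome 20 (76.2 to 79.1%, 79.1 to 79.7%), 1.11 on chromosome 28 (75.6 to 78.0%, 77.9 to 78.8%) and 1.06 on chromosome 1 (76.3 to 78.4%, 78.1 to 79.5%). Here too IUCL-B 5 was the lowest calf throughout. With IUCL-B 4 and 5 left out the differences on chromosomes 19, 18, 5, 22 and 12 were 0.534, 0.870, 0.752, 1.36 and 0.509 points. On chromosomes 15, 20, 28 and 1 they were 0.984, 0.711, 0.642 and 0.661 points. Without IUCL-B 4 and 5, chromosomes 2, 14, 17, 21 and 26 passed (exact permutation tests, adjusted p = 0.166 for each), and 26 chromosomes were higher in IUHT-B.

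**Figure D5:**
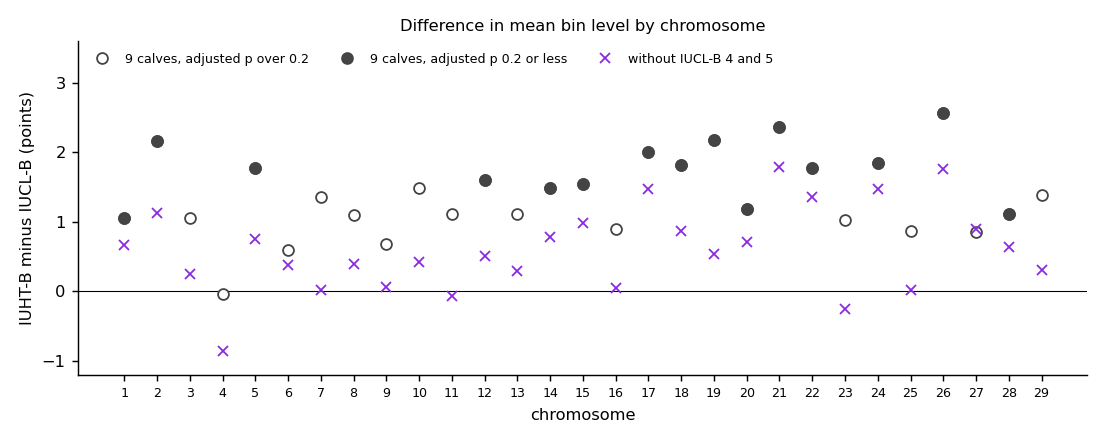
Difference in mean bin level, IUHT-B minus IUCL-B (points), on each of the 29 chromosomes with 9 calves (circles, filled where the adjusted p was 0.2 or less) and without IUCL-B 4 and 5 (crosses). Circles lie above 0 on 28 chromosomes and most crosses lie closer to 0 than the circle of the same chromosome.

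Called bins were found on every chromosome and took from 12.1% of the bins of chromosome 5 to 23.4% of those of chromosome 1, beside the 17.1% over all bins. The difference per chromosome in even bins and in odd bins had r = 0.300 across the 29 chromosomes.

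Bins were also classed by what the heifers' mammary gland showed in them, which used no liver value. In the quartile of bins least methylated in mammary gland, the liver level was 68.3, 69.4, 69.55, 65.0 and 61.3% in IUCL-B 1 to 5 and 69.0, 68.8, 69.1 and 68.4% in IUHT-B 2 to 5. IUCL-B 4 and 5 alone were low, and the difference of 2.10 points (exact permutation test, p = 0.373) became -0.278 without them. The second quartile differed by 1.72 points (exact permutation test, p = 0.0556), and by 0.792 without IUCL-B 4 and 5 (exact permutation test, p = 0.143). In the third quartile, at 75.04 to 79.9% in mammary gland, the calves did not overlap, with 79.5, 80.0, 80.3, 80.1 and 78.4% in IUCL-B 1 to 5 and 80.6, 80.7, 81.2 and 81.2% in IUHT-B 2 to 5. That difference was 1.27 points (exact permutation test, p = 0.0159, adjusted p = 0.133 over 13 tests) and 1.00 without IUCL-B 4 and 5 (exact permutation test, p = 0.0286), with an adjusted p of 0.206, over the level of 0.2. The most methylated quartile differed by 0.542 points (exact permutation test, p = 0.206), and by 0.792 without them (p = 0.143 in the same exact test). The contrast of the most against the least methylated quartile was 20.1 and 23.1 points in IUCL-B 4 and 5 and 14.5 to 16.9 points in the other 7 calves, and it differed between the groups by -1.56 points (exact permutation test, p = 0.476). Without IUCL-B 4 and 5 this turned to 1.07 points (exact permutation test, p = 0.0571).

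By the number of positions the heifers had in a bin, the liver differences from the sparsest to the densest quartile were 0.962, 1.41, 1.75 and 1.52 points (exact permutation tests, p = 0.0714, 0.0635, 0.103 and 0.230). With IUCL-B 4 and 5 left out they were 0.991, 0.654, 0.518 and 0.145 points (exact permutation tests, p = 0.0571, 0.143, 0.257 and 0.657), so that the sparsest quartile had the largest value and the densest the smallest. Called bins fell from 22.2% of the sparsest quartile through 18.5 and 16.5% to 11.2% of the densest (17.2, 13.0, 9.64 and 5.98% without IUCL-B 4 and 5). The median number of positions in IUHT-B 5 went from 13 to 40, and the mean within-group SD from 7.98 to 4.86 points. This fall depended on fitting all bins together. Bins with at least 50 positions in every calf were called at 7.29% in that fit and at 18.8% when fitted alone. Whether sparse bins differ more often was therefore not tested. The change of the difference from sparsest to densest quartile was 0.557 points (exact permutation test, p = 0.579), and it turned to -0.846 without IUCL-B 4 and 5 (exact permutation test, p = 0.0857). Bins in the first 2 Mb of a chromosome (226 bins) differed by 1.44 points, those in the last 2 Mb (514 bins) by 1.41 and those between by 1.41, and without IUCL-B 4 and 5 these were 1.06, 0.723 and 0.552 points. The places were not tested against each other. In the last 2 Mb the level was 81.5% ± 0.475 (SD) over the 4 IUHT-B calves and 80.1% ± 1.11 over the 5 IUCL-B calves, and the groups overlapped (exact permutation test of IUHT-B against IUCL-B, p = 0.0476, adjusted p = 0.133).

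The level of a bin was related between liver and mammary gland. Across the 8298 bins the mean level in liver and in mammary gland had r = 0.831, and single calves had r from 0.522 (IUHT-B 5) to 0.839 (IUCL-B 5) with the heifer mean, the libraries with the fewest and the most positions. The difference between heat stressed and cooled animals had r = -0.049 between the tissues. Within liver the difference had r = 0.0026 between even and odd windows of 2563 of these bins. Those windows hold different positions, so this value sets no upper bound on the r between tissues. Whether the tissues differ in their response was not tested. The direction of the difference was the same in both tissues in 46.6% of all bins. Of the 1417 bins called in liver, 615 (43.4%) had the same direction in mammary gland. Bins called higher in liver differed by -0.489 points on average in mammary gland and bins called lower by -0.188 points, beside -0.432 points for all bins.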

How the data were processed

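Liver DNA was digested with MspI and TaqαI, and fragments under 300 bp were sequenced as 50 bp single reads, trimmed in RRBS mode and aligned in pbat mode with the first 6 bases left out, as the authors state. The submitters' processing notes name Trim Galore 0.4.4, FastQC, Bismark 0.17.0 and build UMD3.1. The deposited tables give each position's methylation percent and its counts of methylated and unmethylated reads. 1 IUHT-B calf that the authors excluded was not analysed here.

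Each position counted once, since PCR copies cannot be told from separate molecules in these tables. Bins were fitted with limma 3.58.1 (trend, R 4.3.3, group as the only term), and calf means with two-sided exact permutation tests (Python 3.11.15). Benjamini-Hochberg adjustment ran over all bins, 29 chromosomes, or 13 classes and contrasts. Named bins were the 4 with the smallest p in each direction at least 1 Mb apart, and named chromosomes those past an adjusted p of 0.2. Members, lists and classes were chosen with earlier results of these data known. On simulated data for the comparison of 9 calves over 8298 bins, limma called 14 of 50 bins lowered by 10 points and 45 of 50 lowered by 20. It called all 50 lowered by 40, all 50 lowered by 60 and 51 unchanged bins. The simulated calves were independent of each other, whereas the calves of a group here listed many of the same positions. The 51 therefore give no error rate for the 1417 called bins. Alternatives comprised bin sizes, position and read minimums, read weighting, shared or unshared positions, logistic regression, a replicate block and each calf left out.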

Additional observations from a re-analysis of the deposited data

Results flagged for a closer look

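Each group of calves was searched for a value far from the rest of its group in the means over all bins, the classes of bins, the named chromosomes and the named bins. Of 82 groups compared, 5 had such a value, and chance alone marks about 1 in 20 groups.

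In the bin chr26:15600000-15699999, IUHT-B 2 had a level of 97.2%, while the other IUHT-B calves lay between 99.99 and 100%. IUHT-B 2 had 36 positions in this bin, the most of its group, and still lay above every IUCL-B calf.

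The other values were all those of IUCL-B 5, the widest library. It had 3.76% of its bins under 50% methylated, against 1.48 to 2.11% in IUCL-B 1 to 4. Its mean bin level was 74.5% on chromosome 21, against 76.7 to 77.4% in the other IUCL-B calves. On chromosome 24 it was 78.0%, against 79.7 to 80.1%, and on chromosome 28 it was 75.6%, against 77.3 to 78.0%. Without IUCL-B 4 and 5 the differences on these chromosomes were 1.80, 1.47 and 0.642 points, against 2.36, 1.85 and 1.11 with all 9 calves.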

How the results depend on the processing

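The difference in mean bin level kept its direction and its side of the 0.05 threshold in 32 alternatives, but in some of these little of the 1.41 points was left: 0.239 with positions listed in both groups (0.683 without IUCL-B 4 and 5), 0.342 in bins of 1 Mb with positions unshared within a group (0.770), and, with positions listed in a single calf, 0.372 over 1485 bins with at least 3 positions (0.621) and 0.0356 over 154 bins of 200 kb (exact permutation tests, p = 0.587, 0.810, 0.706 and 1). It passed 0.05 in 4, at 1.46 points with bins of 200 kb or with at least 5 positions per bin, at 1.54 as a median over bins, and without IUCL-B 3 (exact permutation tests, p = 0.0397, 0.0317, 0.0317 and 0.0286), and it ran from 0.8293 (without IUCL-B 5) to 1.75 points when 1 calf was left out. In the other settings with positions listed in a single calf it reversed, to -3.22 points over 23 bins and -0.501 over 827 bins of 1 Mb. Without IUCL-B 4 and 5 these 2 were -3.29 and -0.404, and bins of 200 kb gave -0.249. The cause was not tested. On positions listed in both groups the contrast of quartiles by mammary level became 0.201 points and that by density -0.196, and with at least 50 positions the latter was 1.86 (exact permutation test, p = 0.0238).

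Bins called by limma ran from 950 to 1709 when 1 calf was left out. Many settings also changed the number of bins tested, so shares are given beside the main 17.1%. The count was 245 (9.70%) with bins of 1 Mb, 727 and 774 (18.9 and 20.3%) with even and odd windows, and 2243, 690 and 116 (9.51, 17.5 and 18.8%) with at least 1, 20 and 50 positions. It was 12 (0.388%) with positions listed in both groups and 141 (2.92%) with under 5 reads. Others were 2 with at least 5 reads or with 10 positions drawn, 1 with positions of a single calf, 942 with weights by positions, 236 at an adjusted p of 0.05, 420 with at least 15 points, 7658 with logistic regression and 0 with overdispersion (899 unadjusted). The limma count was 0 with more than 10 reads, read weighting, at least 5 reads in bins of 1 Mb, positions kept in the most-read calf, positions no other calf of the group listed, and the other bins of positions of a single calf. Unadjusted p under 0.05 was reached in 87, 819, 160, 115 and 20 bins in the first 5 of these.

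Beside 949 (11.4%) without IUCL-B 4 and 5, the counts were then 440 (14.2%) with positions listed in both groups, 567 and 67 (14.4 and 10.9%) with at least 20 and 50 positions, 5 (0.104%) with under 5 reads, 1 with positions of a single calf, and 0 with at least 5 or more than 10 reads (76 and 59 unadjusted), with read weighting (477 unadjusted) and in the other restricted sets (8 to 79 unadjusted). Chromosomes called were 25 and 4 with at least 5 and 50 positions, and 0 with at least 5 reads, more than 10 reads, read weighting or positions listed in both groups (4, 1, 4 and 2 at an unadjusted p under 0.05, exact permutation tests). No value for chromosomes or classes could be had from the 23 bins of single-calf positions.

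Whether replicate numbers pair the calves could not be decided. Deviations of the 4 same-numbered pairs had r from -0.0144 to 0.0295, and pairs of different numbers had r from -0.0239 to 0.0140. Whether such deviations would show a pairing by date or batch was not tested. With the replicate block, limma called 782 bins, against 950 in the same 8 calves without it, and the mean difference was 1.48 points (exact paired permutation test, p = 0.250). With 4 pairs this paired test cannot reach a p under 0.05, whatever the values.

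Settings added after the data were seen were the pooled single-calf positions and those with at least 3 per bin, the most-read calf, positions unshared within a group, positions with under 5 reads, at least 5 reads in bins of 1 Mb, and the fit of all positions to the bins of a position set alone. Without that new fit, adjusting over those bins alone, all positions gave 0 to 594 called bins in the 100 kb and pooled sets of selected positions. Restricted sets held fewer bins with larger errors, so a count of 0 there does not show that a difference is absent. Levels in bins of 10 to 20 positions move in steps of 5 to 10 points where positions are listed at 0 or 100%.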
